A study of Mus musculus with 2 samples.

Results

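Collagen genes were followed in mouse embryonic stem cells treated with ICRF-193, which blocks the catalytic cycle of topoisomerase II, an enzyme that passes one DNA duplex through another. The members are all genes of the deposited table whose symbol is Col, a number, the letter a and a second number, except Col17a1, and the rule used no measured value. It found 40 collagen genes among 21937 genes. Of these, 33 had a mean over both groups (baseMean, in normalised reads) of at least 10 and are described here, namely 11 of 11 fibrillar chains, 7 of 9 basement membrane chains and 15 of 20 other chains. The cells were wild type, of the strain 129Sv-C57Bl/6, and were grown without feeder cells. One group received 500 nM ICRF-193 for 16 h and the other the solvent DMSO for the same 16 h, and each group was labelled as 3 replicates. Whether the replicates were separate cultures is not said in the labels, so p-values measure the spread between these libraries, which may be technical.

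Collagens are secreted proteins in which 3 alpha chains wind into a triple helix. Fibrillar collagens are trimmed outside the cell and pack into cross-linked fibrils, type IV collagen forms the sheet-like network of basement membranes, and the remaining types decorate fibrils, form beaded filaments or short-chain networks, or sit in the cell membrane. In the early embryo the cells that embryonic stem cells derive from lie next to a basement membrane laid down by the primitive endoderm, whereas type I and type III collagen are the classic products of fibroblasts and type II collagen that of cartilage.

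The deposited table holds group means, and whole reads per library were worked back from their digits. In each group the library with the largest size factor is called A, the next B and the smallest C, and these letters carry no replicate number. Total reads ran from 29501258 to 47402016 per library, counting the likeliest combination for genes left unresolved. Over resolved genes alone they ran from 27149723 to 43219261. In the collagen genes both libraries A were unlike the rest. Over all 40 members, normalised reads summed to 95524 in library A of the DMSO group, where B and C gave 40731 and 45443, and to 106781 in library A of the ICRF-193 group, where B and C gave 59192.5 and 56301. Col18a1, Col4a1, Col4a2 and Col1a1 together held 82.9% of the members' normalised reads in DMSO and 78.2% under ICRF-193. For the members high in both libraries A, the ratio of ICRF-193 to DMSO is therefore also given within libraries B and C. In these bulk samples, fewer cells of a type and less RNA per cell cannot be told apart.

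Bases upstream of 4 members are shown as examples of both patterns described below. Col7a1 and Col5a3 passed the test for treatment, whereas Col3a1 and Col8a1 were high in libraries A of both groups and did not pass. The stretches come from RefSeq promoter windows on the build GRCm38.p6, which matched 32 of 40 members, and are written 5′ to 3′ on the strand of the gene without any annotated exon. Capitals mark a CCAAT box (CCAAT), a GC box (GGGCGG) or a TATA box (TATAAA), read on either strand.
Col7a1, chr9:108953336-108953585, plus strand: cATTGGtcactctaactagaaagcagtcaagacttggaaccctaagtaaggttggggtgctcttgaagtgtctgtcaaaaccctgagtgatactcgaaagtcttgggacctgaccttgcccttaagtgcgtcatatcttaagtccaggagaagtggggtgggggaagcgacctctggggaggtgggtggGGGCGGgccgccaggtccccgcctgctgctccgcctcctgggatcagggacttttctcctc
Col5a3, chr9:20815118-20815317, minus strand: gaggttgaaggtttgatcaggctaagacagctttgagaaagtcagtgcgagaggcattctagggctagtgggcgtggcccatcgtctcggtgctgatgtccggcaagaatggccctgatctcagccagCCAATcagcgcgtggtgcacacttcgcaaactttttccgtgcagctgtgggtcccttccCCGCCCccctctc
Col3a1, chr1:45311288-45311537, plus strand: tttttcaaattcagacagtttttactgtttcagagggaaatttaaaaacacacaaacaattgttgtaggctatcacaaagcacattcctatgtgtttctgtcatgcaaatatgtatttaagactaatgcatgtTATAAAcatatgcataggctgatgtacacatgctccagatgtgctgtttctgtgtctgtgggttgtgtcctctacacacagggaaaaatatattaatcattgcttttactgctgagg
Col8a1, chr16:57754738-57754987, minus strand: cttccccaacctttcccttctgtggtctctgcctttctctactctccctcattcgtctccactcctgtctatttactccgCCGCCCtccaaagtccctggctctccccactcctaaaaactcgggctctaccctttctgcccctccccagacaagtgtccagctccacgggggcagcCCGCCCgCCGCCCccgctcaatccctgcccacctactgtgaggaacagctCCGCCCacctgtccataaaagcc
The first pair each held 1 CCAAT box and 1 GC box, Col3a1 held 1 TATA box, and Col8a1 held 4 GC boxes. A CCAAT box together with a GC box was neither limited to members that passed nor present in all of them. Whether boxes differ between the patterns was not tested. The stretch of Col11a1, high in libraries A and not passed, also held 1 CCAAT box and 1 GC box. Both stretches of Col6a2, which passed, held 0 CCAAT boxes. Over whole windows of 300 bases (250 before the start and 50 after it), a GC box was found in 21 of 27 described members with a window (77.8%), against 68.1% of 10395 genes with baseMean of at least 10 and 38.2% of all 27025 genes with a window. CCAAT was found in 40.7% of the described members and 42.7% of the genes with baseMean of at least 10. TATAAA was found in 11.1% and 9.18%. Of the 7 members that passed and had a window, 4 held CCAAT, 6 a GC box and 0 TATAAA. A base could count toward more than 1 motif, and a match describes letters in this window only.

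Of the 33 described members, 10 were higher under ICRF-193 and 0 were lower at an adjusted p under 0.05 in the authors' deposited table (DESeq). Among all 14939 genes with baseMean of at least 10 that table called 7.18% higher and 1.57% lower. The 10 were the fibrillar chains Col2a1, Col5a3 and Col27a1, the basement membrane chains Col7a1 and Col15a1, and the other chains Col6a4, Col6a2, Col22a1, Col9a3 and Col16a1. At an unadjusted p under 0.05 the deposited test and limma-voom on the worked-back reads each had 15 members higher and 0 lower. The same threshold held 13.2% of genes with baseMean of at least 10 as higher and 6.71% as lower in the deposited test, and 17.0% and 15.1% of 14972 genes in limma-voom. The fold change was above 1 in 32 of 33 members in the authors' deposited table, with Col13a1 as the exception. The median log2 fold change of that table was 0.46 over the 33 members and -0.05 over all genes with baseMean of at least 10 whose reads were resolved. By class the deposited medians were 0.46 for fibrillar, 0.37 for basement membrane and 0.93 for other chains. These moved with the libraries: within B and C the class medians were 0.86, 0.77 and 1.10, and within A 0.41, 0.14 and 0.64.

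The groups did not overlap in 14 of 33 members, all 3 ICRF-193 libraries being above all 3 DMSO libraries, against 18.5% of 14884 genes with resolved reads. The reverse order was found in 0 members and in 18.8% of those genes. These 14 were the 10 that passed and Col11a2, Col23a1, Col6a6 and Col25a1. A fold change above 2 was listed for 12 of 33 members in the authors' deposited table, against 8.53% of genes with baseMean of at least 10. Col6a1, Col24a1 and Col25a1 were among the 12 without passing. Limma-voom called 10 members higher and 0 lower, where it called 9.76% and 5.95% of all genes, and 9 of the 10 were shared with the deposited test. It did not call Col16a1 (adjusted p = 0.0675) and called Col25a1 (adjusted p = 0.0361). Col25a1 had 17, 7 and 10 whole reads in the DMSO libraries, too few on their own for the read minimum of that fit (10 reads in 3 libraries).

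**Figure D1:**
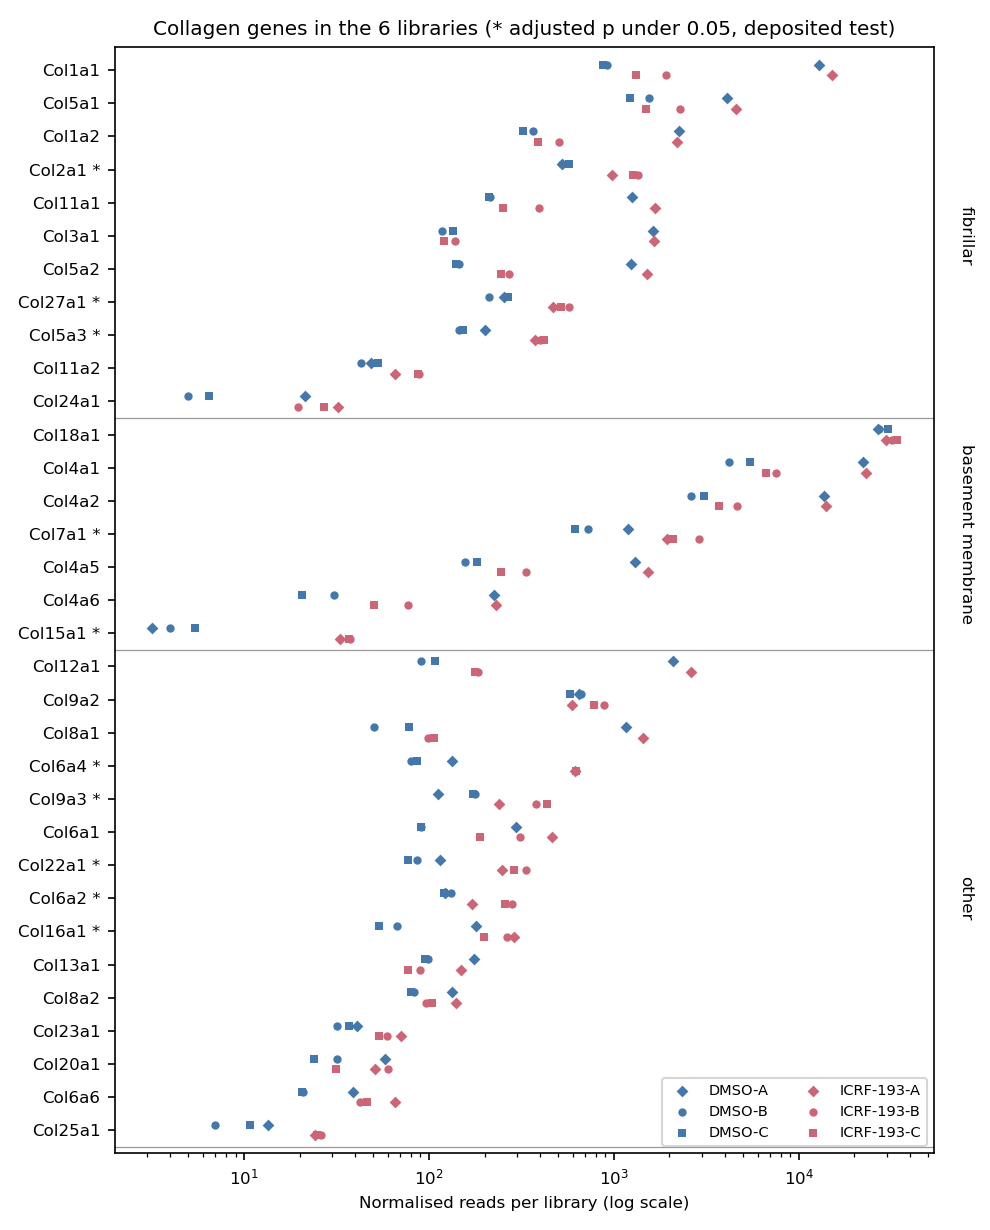
Normalised reads (log scale) of the 33 described collagen genes in each of the 6 libraries, with DMSO in blue and ICRF-193 in red, and diamonds, circles and squares for libraries A, B and C. An asterisk marks the 10 genes that passed the deposited test, in which all ICRF-193 points lie to the right of all DMSO points, while Col1a1, Col3a1, Col12a1 and Col8a1 show both diamonds far to the right of the other points.

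Among fibrillar chains, the 3 that rose were those of types II, V and XXVII. Col2a1 on chromosome 15 encodes the main collagen of cartilage. It stood at 524, 526 and 573 normalised reads in DMSO-A, -B and -C and at 982, 1356 and 1267 in ICRF-193-A, -B and -C. The lowest ICRF-193 library was above the highest DMSO library. The authors' deposited table gave Col2a1 a 2.22-fold change (log2 1.15, adjusted p = 0.000217), and limma-voom gave log2 1.14 ± 0.15 (SE, adjusted p = 0.00752).

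Col5a3 on chromosome 9 encodes the third chain of type V collagen, which joins type I fibrils and sets their diameter. Its reads were 201, 145 and 152 in the DMSO libraries and 375, 398 and 419.7 in the ICRF-193 libraries, so libraries A lay near the others in the treated group. A 2.39-fold change (log2 1.26, adjusted p = 0.000252) stands in the authors' deposited table. Its upstream stretch is the one shown above. The companion chains of type V did not pass: Col5a1 had 4118, 1548 and 1220.1 reads in DMSO and 4596, 2268 and 1496 under ICRF-193, and a log2 fold change of 0.28 (adjusted p = 0.998) in the authors' deposited table, against a log2 ratio of 0.44 within libraries B and C. In Col5a2 the log2 fold change was 0.42 in the authors' deposited table, with 1241 reads in DMSO-A against 145 and 139. Its log2 ratio within libraries B and C was 0.86.

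Col27a1 on chromosome 4, a fibrillar chain known from developing cartilage, had 255, 211 and 268 reads in DMSO and 472, 575 and 515 under ICRF-193. The ranges were separate. In the authors' deposited table it changed 2.13-fold (log2 1.09, adjusted p = 0.00121). Without ICRF-193-B its adjusted p in limma-voom was 0.0502, and without each other library it ran from 0.0125 to 0.0456.

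The type I chains, which together form the main fibril of skin, bone and tendon, did not pass. Col1a1 had 12908, 923 and 874 reads in DMSO and 15180.3, 1907 and 1323 under ICRF-193. Its library A was 14.4-fold above the mean of B and C in DMSO and 9.40-fold above it under ICRF-193. Within libraries A its log2 ratio of ICRF-193 to DMSO was 0.23 and within B and C 0.85, while the authors' deposited table gave 0.32 (adjusted p = 1). Col1a2 showed the same order of libraries, with 2243, 364 and 323 reads in DMSO and 2197, 507 and 389 under ICRF-193, and a log2 fold change of 0.08 in the authors' deposited table. Within libraries B and C its log2 ratio was 0.38, and within A -0.03.

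Col3a1, which forms the reticular fibrils of soft tissue, differed little between the groups within each kind of library. It had 1621, 118 and 135 reads in DMSO and 1659, 138 and 121 under ICRF-193, a library A of 12.8-fold the others in each group, and a log2 fold change of 0.03 in the authors' deposited table. Limma-voom with a term for libraries A gave log2 0.04 ± 0.09 (SE). Its adjusted p was 0.856 in limma-voom without both libraries A, where 28 of 33 members were called. The type XI chains, which nucleate cartilage fibrils, split: Col11a1 was 5.89-fold higher in DMSO-A than in DMSO-B and -C, and Col11a2 1.02-fold. Within libraries B and C the log2 ratio of Col11a1 was 0.60, and within A 0.41. In Col11a2 the DMSO libraries lay from 42.7 to 53.0 and the ICRF-193 libraries from 65.2 to 88.1, with an adjusted p of 0.237 in the authors' deposited table. Col24a1 was low, at 5.0 to 21.5 reads in DMSO and 19.7 to 32.1 under ICRF-193.

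Among basement membrane chains, Col7a1 and Col15a1 rose and no type IV chain passed. Col7a1 on chromosome 9 encodes the anchoring fibrils that tie epithelial basement membranes to the tissue below. It had 1191, 722 and 620.3 reads in DMSO and 1936, 2900.1 and 2088 under ICRF-193. Library A was the highest of the DMSO libraries and the lowest of the ICRF-193 libraries. The authors' deposited table gave a 2.73-fold change (log2 1.45, adjusted p = 0.000705), against a 1.63-fold ratio within libraries A and 3.72-fold within B and C. Its limma-voom log2 was 1.47 ± 0.27 (SE, adjusted p = 0.0184). The adjusted p was 0.0854 without DMSO-B, 0.0653 without DMSO-C, 0.0794 without ICRF-193-B and 0.0677 without ICRF-193-C.

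Col15a1 on chromosome 4 encodes a proteoglycan-like collagen that bridges basement membranes and fibrils. It was carried by few reads, 4, 4 and 5 whole reads in the DMSO libraries and 33, 36 and 33 in the ICRF-193 libraries, or 4.2 ± 1.1 against 35.8 ± 2.3 normalised reads (SD, n = 3 each). Both kinds of library showed it, with ratios of 10.4 within A and 7.94 within B and C. In the authors' deposited table the change was 8.56-fold (log2 3.10, adjusted p = 7.35e-06). This was the largest log2 fold change of the 33 members in that table, and it came from the member of lowest DMSO level. With 4.2 normalised reads in DMSO, Col15a1 reached the baseMean minimum of 10 only through the ICRF-193 group. The read minimum of limma-voom was likewise met only by the ICRF-193 libraries. Its place in the counts of members therefore depends on the group where it is high.

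Col18a1 on chromosome 10 is the relative of Col15a1 from which endostatin is cut, and it was the most abundant member per kilobase of exon. Its level was 4011 normalised reads per kilobase in DMSO and 4539 under ICRF-193. The libraries lay close together, at 26992, 27024 and 30457 reads in DMSO and 29755, 31959.7 and 33899 under ICRF-193, with libraries A not apart. The groups overlapped, and the log2 fold change in the authors' deposited table was 0.18 (adjusted p = 0.848).

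Ranking next per kilobase were Col4a1 and Col4a2, the ubiquitous type IV chains of the basement membrane network, which stood at 1431 and 974 normalised reads per kilobase in DMSO. Col4a1 had 22369, 4199 and 5474 reads in DMSO and 23188, 7531 and 6678 under ICRF-193. Col4a2 had 13665, 2618 and 3063 reads in DMSO and 14102, 4647 and 3709 under ICRF-193. Libraries A were 4.63-fold and 4.81-fold above the others in DMSO for this pair. The log2 fold changes in the authors' deposited table were 0.22 for each (adjusted p = 1), and within libraries B and C the log2 ratios were 0.55 and 0.56. Reads of Col4a1 and Col18a1 were resolved by posterior and not by a single solution.

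Col4a5 and Col4a6, chains of a second type IV network, lay on chromosome X. Col4a5 had 1296, 157 and 183 reads in DMSO and 1539.8, 336 and 245 under ICRF-193. Col4a6 had 224, 30.8 and 20.5 reads in DMSO and 232, 76.7 and 50.5 under ICRF-193. Their log2 fold changes in the authors' deposited table were 0.37 and 0.39 (adjusted p = 1 each). Within libraries B and C the log2 ratio was 0.77 for Col4a5 and 1.31 for Col4a6, and within libraries A it was 0.25 and 0.05.

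Among the other chains, 2 of 4 type VI chains rose, which build beaded filaments near cell surfaces. Col6a4 on chromosome 9 had 134, 80.4 and 86.5 reads in DMSO and 613, 625 and 626 under ICRF-193. The 3 treated libraries were nearly equal, at 622 ± 7.2 against 100.2 ± 29.2 (SD, n = 3 each). In the authors' deposited table this was a 6.20-fold change (log2 2.63, adjusted p = 1.52e-17), and limma-voom gave log2 2.65 ± 0.20 (SE, adjusted p = 0.00184). It stayed under 0.05 without any single library, at 0.0018 to 0.0205.

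Col6a2 had 122, 131 and 120.0 reads in DMSO and 171, 283 and 257 under ICRF-193, with the smallest fold of the 10 that passed, 1.91 in the authors' deposited table (adjusted p = 0.0207). Its limma-voom adjusted p was 0.0443, and between 0.0669 and 0.150 without DMSO-A, DMSO-B, DMSO-C, ICRF-193-B or ICRF-193-C. Its partner Col6a1 had 295, 90.3 and 90.8 reads in DMSO and 461, 309 and 189.7 under ICRF-193. The groups of Col6a1 overlapped, and the authors' deposited table gave it log2 1.01 with an adjusted p of 0.535. Its log2 ratio was 1.46 within libraries B and C and 0.64 within A. Col6a6 did not pass either, at 20.5 to 39.0 reads in DMSO and 42.5 to 65.2 under ICRF-193.

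Of 6 described fibril-associated chains, which coat the surface of fibrils, 3 rose. Col22a1, known from junctions of muscle and tendon, had 115, 86.3 and 76.7 reads in DMSO and 247, 336 and 289.5 under ICRF-193. The authors' deposited table gave a 3.13-fold change (log2 1.65, adjusted p = 1.61e-06). Limma-voom gave log2 1.64 ± 0.21 (SE, adjusted p = 0.00674), and no library alone ended the call.

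Col9a3, a chain of the type IX collagen that coats cartilage fibrils, had 112, 178 and 174 reads in DMSO and 239, 380.5 and 438 under ICRF-193. Here library A was the lowest in each group. A 2.28-fold change (log2 1.19, adjusted p = 0.0190) stands in the authors' deposited table. In limma-voom its adjusted p was 0.0445, and between 0.0692 and 0.156 without DMSO-A, DMSO-B, DMSO-C, ICRF-193-B or ICRF-193-C. Exons of Col9a3 overlap those of Tcfl5 on the other strand by 234 bases (6.07% of its exons), and reads of the pair cannot be told apart there if the kit kept no strand. Col9a2, the companion chain, had 646, 666 and 578 reads in DMSO and 596, 889.6 and 784 under ICRF-193, and a log2 fold change of 0.26 (adjusted p = 0.741) in the authors' deposited table.

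Col16a1, found at the edge of several matrices, had 181, 67.5 and 54.0 reads in DMSO and 289, 263 and 199.8 under ICRF-193. The authors' deposited table gave log2 1.32 with an adjusted p of 0.0387. Its limma-voom adjusted p was 0.0675, 0.00763 without DMSO-A, and between 0.128 and 0.218 without each other library. Col12a1, which binds type I fibrils, showed the widest gap between libraries of the 33, with 2093, 90.3 and 108 reads in DMSO and 2623, 184 and 177 under ICRF-193. Its library A was 21.1-fold above the others in DMSO and 14.5-fold under ICRF-193, and the log2 fold change in the authors' deposited table was 0.38 (adjusted p = 1). Its log2 ratio was 0.86 within libraries B and C and 0.33 within A.

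Neither short-chain collagen of type VIII, which forms hexagonal networks under some endothelia, passed. Col8a1 had 1159.7, 50.6 and 77.8 reads in DMSO and 1440.4, 98.5 and 107 under ICRF-193, again with library A far above the others. Its log2 ratio was 0.68 within libraries B and C and 0.31 within A. Col8a2 lay within 80.0 to 133 in DMSO and 96.4 to 141 under ICRF-193. Of the 3 transmembrane chains none passed in the authors' deposited table. Col23a1 had 31.7 to 40.6 reads in DMSO and 53.9 to 70.3 under ICRF-193. Col25a1, at the lowest baseMean of those described (17.7), had 6.9 to 13.5 and 24.1 to 25.9 reads. In Col13a1 reads were 176, 99.2 and 95.1 in DMSO and 149, 89.2 and 77.4 under ICRF-193, a log2 fold change of -0.23 (adjusted p = 0.906) in the authors' deposited table. Col20a1 had 23.8 to 58.1 reads in DMSO and 31.4 to 60.1 under ICRF-193.

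The remaining 7 members were below a baseMean of 10, from 2.78 for Col19a1 to 9.23 for Col14a1. They were Col4a3, Col4a4, Col9a1, Col10a1, Col14a1, Col19a1 and Col28a1, and none passed in the authors' deposited table. Their fold changes in that table were all above 1, with few reads behind each. Col4a3 had 3.0 to 5.4 normalised reads in DMSO and 8.0 to 9.3 under ICRF-193.

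Both patterns, treatment and library, were spread unevenly over the members. Libraries A were over 2 times the mean of B and C in both groups in 12 of 33 members, against 3.92% of 14884 genes. The 12 were 6 fibrillar chains (Col1a1, Col1a2, Col3a1, Col5a1, Col5a2, Col11a1), the 4 described type IV chains, Col12a1 and Col8a1. None of the 12 was among the 10 that passed the deposited test. That test compared the groups without a term for libraries A, so such a gap is part of the spread it used. The library ratio and the calls are therefore not independent of each other. With a term for libraries A, limma-voom called 15 of the 23 that did not pass, beside 27.1% of all genes. The median log2 ratio of DMSO-A to the mean of DMSO-B and -C was 0.26 in the 10 that passed and 1.91 in the 23 that did not, and -0.00393 over all genes with resolved reads. Among 1946 genes with an exonic length within the middle range of the described members (6.56 to 9.24 kb) it was 0.27. The part of this spread between libraries in which members passed was not tested in the deposited table, and the fits below give the calls with and without libraries A.

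**Figure D2:**
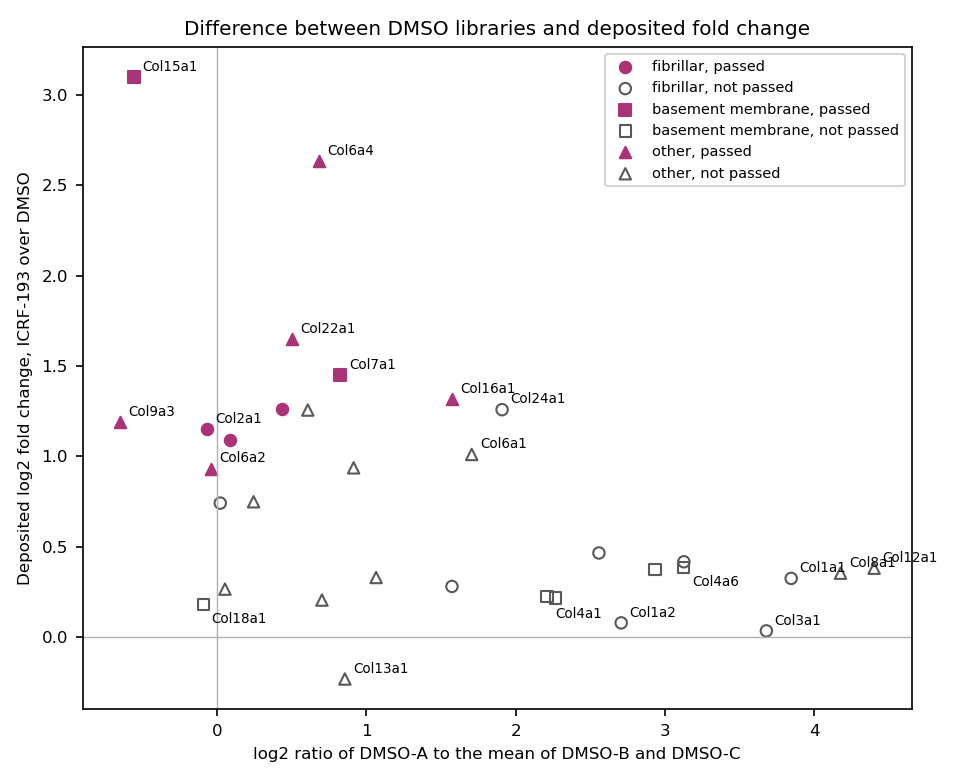
Deposited log2 fold change of ICRF-193 over DMSO (vertical axis) against the log2 ratio of DMSO-A to the mean of DMSO-B and DMSO-C (horizontal axis) for the 33 described members, with circles for fibrillar, squares for basement membrane and triangles for other chains, filled where the deposited test was passed. All filled points lie at a library ratio of 2.97-fold or less, and the points farthest right, Col12a1, Col8a1 and Col1a1, lie at log2 fold changes of 0.38, 0.35 and 0.32.

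Within libraries B and C the ratio of ICRF-193 to DMSO was above 1 in 32 of 33 members, and within libraries A in 29. The median log2 ratio was 0.86 within B and C and 0.41 within A, against -0.04 and -0.05 over all genes. The ratio was larger within B and C in 30 of 33 members, against 8236 of 14884 genes. Col15a1, Col23a1 and Col3a1 were the exceptions. The difference itself, tested as an interaction in limma-voom, passed in 0 of 33 members and in 0.0% of 14972 genes. The lowest adjusted p of a member was 0.189, for Col7a1. At an unadjusted p under 0.05 there were 16 members, each with a smaller effect in libraries A, and 1156 of all genes.

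**Figure D3:**
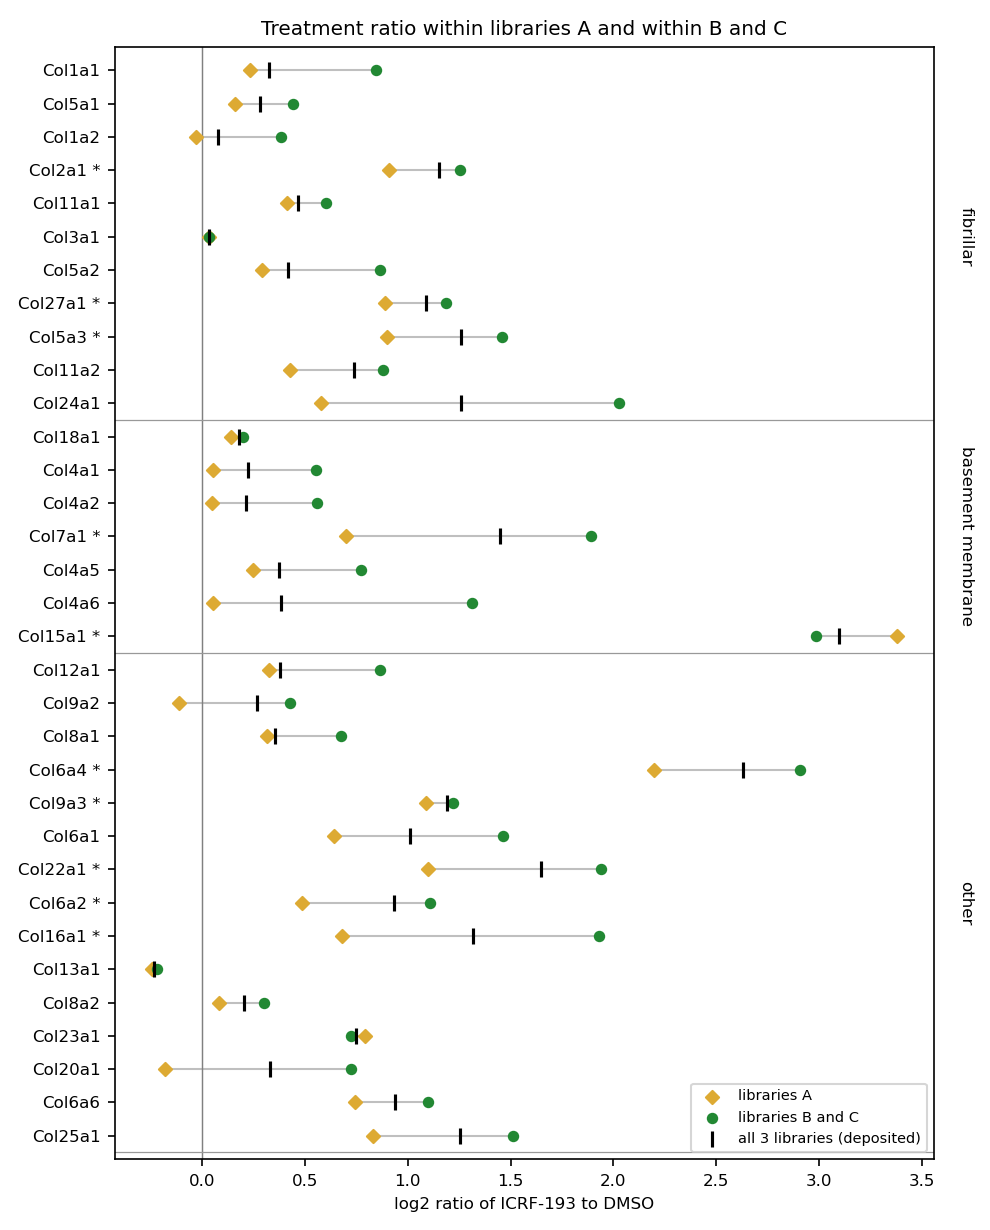
The log2 ratio of ICRF-193 to DMSO within libraries A (yellow diamonds), within the means of libraries B and C (green circles) and over all 3 libraries as deposited (black bars) for each described member, with an asterisk where the deposited test was passed. The green circle lies to the right of the diamond in 30 of 33 rows, most widely for Col24a1, Col4a6, Col16a1 and Col7a1.

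A limma-voom fit with a term for libraries A called 25 of 33 members higher and 0 lower, where it called 27.1% of 14972 genes higher and 32.6% lower. All 10 of the deposited calls were among the 25. The members it did not call were Col13a1, Col1a2, Col20a1, Col3a1, Col4a6, Col5a1, Col8a2 and Col9a2. Without both libraries A, which leaves only libraries B and C in each group, limma-voom called 28 members higher and 0 lower. It called 25.1% and 28.8% of all genes. Both the term and this exclusion were chosen after libraries A had been seen to stand apart in these data. Type IV chains illustrate the step: Col4a1 had an adjusted p of 0.759 in limma-voom on all 6 libraries, 0.0179 with the term for libraries A and 0.00137 without both. Its estimates in the same 3 fits were log2 0.38, 0.36 and 0.57. In Col4a6 they were 0.80, 0.43 and 1.29, with an adjusted p of 0.617, 0.155 and 0.00701. Leaving out a single library unbalanced the groups: without ICRF-193-A, 12 of 32 tested members had an estimate below 0, and without DMSO-A 0 of 33, with 0 called lower in either fit at an adjusted p under 0.05.

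Chains that assemble together did not all keep one ratio. The ratio of Col4a1 to Col4a2 per kilobase of exon lay between 1.42 and 1.60 in all 6 libraries. These genes start head to head on chromosome 8 in GENCODE, with exons that overlap by 22 bases, and both were highest in libraries A. By contrast the ratio of Col1a1 to Col1a2 per kilobase was 4.80 to 7.12 in libraries B and C of both groups, and 10.9 and 13.1 in DMSO-A and ICRF-193-A. The ratio of Col8a1 to Col8a2 was 5.0 and 5.87 in libraries A and 0.348 to 0.585 in the others. For Col9a2 to Col9a3 it was 4.14 to 7.16 in DMSO and 2.23 to 3.11 under ICRF-193, with no overlap between the groups. In all other pairs compared, of types I, IV, V, VI, VIII and XI, the groups overlapped. Differences in these ratios were not tested.

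Other members are neighbours in the genome. Col4a6 and Col4a5 start 1309 bases apart, head to head, and both were high in libraries A. Col6a2 and Col6a1 follow one another on one strand of chromosome 10, and only Col6a1 was over 2 times higher in DMSO-A than in the other DMSO libraries (3.26-fold against 0.971-fold). Col3a1 and Col5a2 lie tail to tail on chromosome 1, both high in libraries A. Col6a6 and Col6a4 are separated by 1 protein-coding gene on chromosome 9, with log2 fold changes of 0.94 and 2.63 in the authors' deposited table. Differences between neighbours were not tested.

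Genes that modify, process, bind and degrade collagen were counted from 5 lists. Of 55 with reads, 6 were higher and 0 lower in the authors' deposited table, beside 5.97% and 1.26% of all 18759 genes with reads. In chain modification and folding 1 of 17 rose, Plod2, a lysyl hydroxylase that prepares cross-links: its reads were 4801, 2791 and 3610.5 in DMSO and 8236, 7739 and 7901 under ICRF-193 (log2 1.09, adjusted p = 0.000521, in the authors' deposited table). Serpinh1, the collagen chaperone of the endoplasmic reticulum, did not pass (log2 0.50, adjusted p = 0.376, in the authors' deposited table).

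In processing and cross-linking 2 of 13 rose. Adamts2, which removes the amino-terminal propeptide of fibrillar collagens, had 50.9, 22.8 and 31.3 reads in DMSO and 138, 125 and 148 under ICRF-193, and log2 1.97 (adjusted p = 1.10e-06) in the authors' deposited table. Loxl3, a lysyl oxidase, had 112, 96.2 and 90.8 reads in DMSO and 217, 245 and 230.1 under ICRF-193, and log2 1.21 (adjusted p = 0.00128) in the authors' deposited table. Another 3 enzymes of this family, Lox, Loxl1 and Loxl2, were over 2 times higher in libraries A of both groups, as the type I chains were. Among 14884 genes with baseMean of at least 10 this held for 3.92%.

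Collagen receptors held 2 of 8 that rose. Ddr1, a receptor tyrosine kinase that binds collagen, had 3584, 4490.0 and 5274 reads in DMSO and 6177, 8599.6 and 8540.0 under ICRF-193 (log2 0.80, adjusted p = 0.0134, in the authors' deposited table). Itga10, the alpha chain of a collagen-binding integrin of cartilage, had 83.6, 107 and 90.8 reads and 142.5, 226 and 187 (log2 0.98, adjusted p = 0.0163, in the authors' deposited table). Among 9 breakdown genes Mmp9, a gelatinase, rose (log2 0.90, adjusted p = 0.0382, in the authors' deposited table). Its limma-voom adjusted p was 0.0576.

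None of 8 other basement membrane genes passed in the authors' deposited table (DESeq), and 0 of them had an unadjusted p under 0.05 there. Limma-voom called 1 of the 7 with resolved reads, Lama5, a laminin chain (adjusted p = 0.0467). The most abundant of this list, Hspg2, which encodes perlecan, had log2 0.34 (adjusted p = 0.929) in the authors' deposited table. Mia3, Mmp1a, Mmp8 and Gp6 were listed at 0. The 5 lists gave 8 genes higher in limma-voom and, with the term for libraries A, 30 higher and 3 lower of 49 tested, in a fit that called 27.1% of all genes higher and 32.6% lower.

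**Figure D4:**
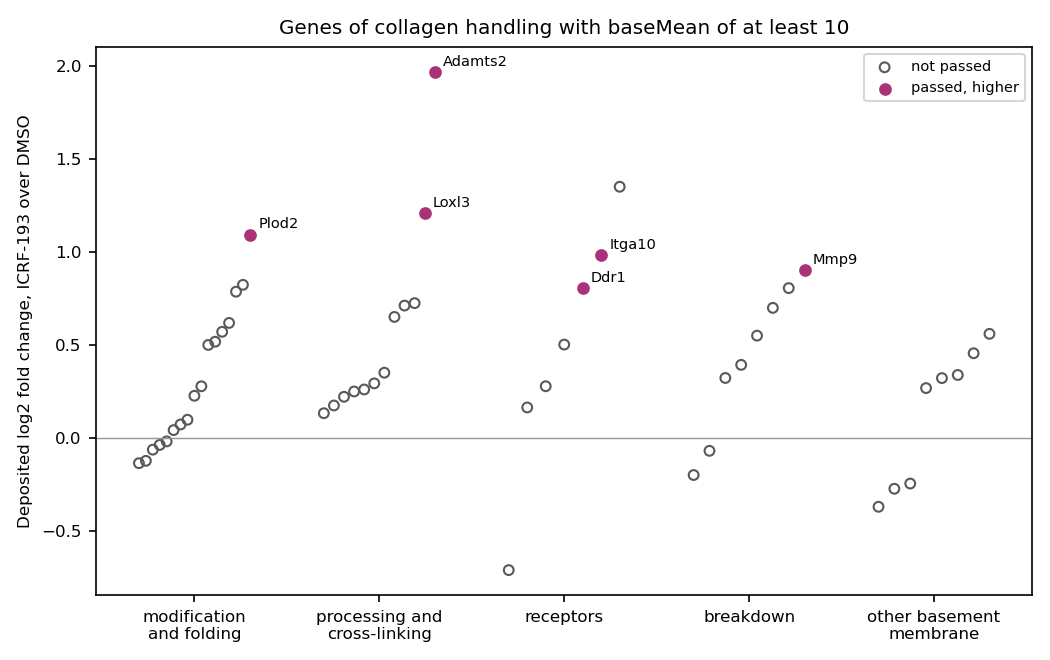
Deposited log2 fold change of ICRF-193 over DMSO for genes of collagen handling with baseMean of at least 10, in 5 lists ordered by value, filled where the deposited test was passed. The 6 filled points, Plod2, Adamts2, Loxl3, Ddr1, Itga10 and Mmp9, all lie above 0.80 on the log2 scale, and no point below 0 is filled.

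Markers of other cell types were read beside these results. Embryonic stem cell markers were abundant in every library, with Pou5f1 at 24395 to 48467 normalised reads, and 1 of 8 fell, Zfp42 (log2 -0.99, adjusted p = 0.00186, in the authors' deposited table). Limma-voom called 2 of 8 lower, Zfp42 and Sox2 (adjusted p = 0.0190 and 0.00862), and 8 of 8 lower with the term for libraries A. The deposited test called 1.26% of all genes with reads lower, and these 2 fits called 5.95% and 32.6% of 14972 genes lower. Of 11 fibroblast and feeder cell markers with reads, 0 passed in the authors' deposited table (DESeq), 1 had an unadjusted p under 0.05, and limma-voom called 0. With the term for libraries A, limma-voom called 5 of 10 tested higher and 0 lower, beside 27.1% and 32.6% of all genes. Their summed level was 25623 in DMSO-A against 4018 and 5127, and 33757 in ICRF-193-A against 6621 and 6374. Without Acta2, which held most of it, the sum was 2685 against 999.98 and 1165, and 3279 against 1499 and 1555. In all, 5 of the 11, Acta2, Pdgfra, Pdgfrb, Postn and Prrx1, were over 2 times higher in libraries A of both groups. That held for 3.92% of 14884 genes with baseMean of at least 10. By contrast Fap was listed at 0, Lum was at or under 1.0 and Dcn at 5.6 to 15.1 in every library.

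Markers of primitive and extraembryonic endoderm summed to 4208 in DMSO-A against 1032 and 1619.9, and to 4332 in ICRF-193-A against 1669 and 2068. Of the 8, 6 were over 2 times higher in libraries A of both groups, Gata4, Gata6, Sox7, Sox17, Dab2 and Thbd. The same held for 3.92% of 14884 genes with baseMean of at least 10. Of the 8 markers 0 passed the deposited DESeq test or limma-voom, with 0 at an unadjusted p under 0.05 in either. With the term for libraries A, limma-voom called 2 of 8 higher and 0 lower, where it called 27.1% of all genes higher and 32.6% lower. The part of fibroblast-like or endoderm-like cells in the collagen levels of libraries A was not tested.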

How the data were processed

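Messenger RNA of 2 groups, DMSO and ICRF-193, was sequenced, and 1 table of the authors' comparison was used. TopHat, HTSeq and DESeq with the mouse build mm9 are named in the submitters' processing notes; versions, gene annotation and whether the kit kept strand are not given in the sources used here. The deposited group means hold a signal: for each gene, the mean over libraries of reads divided by that library's size factor. The deposited fold change is a ratio of these means, and the deposited log2 value is its log2. The p-values, raw and adjusted, come from the authors' own test as deposited. Recomputed here, the ratio differed by at most 1.15e-14 (relative) and the adjusted p from a Benjamini-Hochberg adjustment by at most 2.59e-15. Sums, means and medians over members were computed from these values.

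The deposited test is the main result, with a threshold of 0.05 on the adjusted p. Whole reads per library were worked back from the 15 printed digits of each mean. A single combination gave both means in 18205 of 18759 genes with reads (97.0%), 499 genes were resolved by a posterior of at least 0.99, and 55 stayed unresolved. Of the 40 members 38 had a single solution. With only 12 digits kept, 1381 of 1381 means resolved by posterior were right in genes with a library A ratio near the median, and 87 of 87 in genes far from it. Size factors recomputed from the reads differed from those used by at most 0.0487%.

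Limma-voom (limma 3.58.1, R 4.3.3) was run on the 14972 genes in which 3 or more libraries had 10 or more reads, using the worked-back size factors and Benjamini-Hochberg adjustment. Further fits added a term for libraries A, an interaction, or left libraries out. Standard deviations are over 3 libraries of a group. Exonic lengths, neighbours and overlaps are from GENCODE vM21 on GRCm38, chromosome numbers included; the deposited table has no coordinates. Motifs were counted with Python 3.11.15 in RefSeq windows.

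Every member with baseMean of at least 10 was named. Given in full were those past the deposited threshold, the type I and type IV chains and the 3 members of highest baseMean in each class. Pathway genes were named if past the threshold, up to 4 a list, or else the one of highest baseMean; Serpinh1, Lama5 and the genes high in libraries A were added after their values were seen. The members, the lists and the fits that set libraries A apart were chosen with earlier results of these data known. Col6a3, Col6a5 and Col21a1 were not analysed here.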

Additional observations from a re-analysis of the deposited data

How the results depend on the processing

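At most 12 and at least 4 members were called higher by limma-voom without each library in turn, against 10 in the authors' deposited table. The count was 12 without DMSO-A, 6 without DMSO-B, 6 without DMSO-C, 9 without ICRF-193-A, 4 without ICRF-193-B and 5 without ICRF-193-C. In the same order these fits called 11.7%, 3.27%, 4.14%, 8.29%, 2.43% and 3.0% of all genes higher. Col6a4, Col22a1, Col2a1 and Col5a3 passed in each of these fits. Col15a1 had too few libraries with 10 reads to be tested without an ICRF-193 library. With a term for libraries A limma-voom called 25 members, and without both libraries A it called 28; of 49 pathway genes tested, 30 were higher and 3 lower with that term, against 6 higher deposited and 8 in limma-voom. That term gave 27.1% of all genes higher and 32.6% lower. Total read scaling moved the median log2 of all genes from -0.04 to 0.08 and called 12 members. It called 1833 of 14972 genes higher and 417 lower, where limma-voom with the worked-back size factors called 1461 and 891. Thresholds of 0.1 and 0.01 on the adjusted p gave 10 and 7, no filter on baseMean 10, and a minimum of 100 gave 9. Without a filter the deposited test called 5.97% of all genes with reads higher. The share of all genes at the other thresholds and minimum was not counted. No member was called lower under any of these settings (0 in each). Class medians kept their sign without a filter and with a minimum of 100.

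For the 21 members given in full, a pseudocount of 1 moved no log2 fold change by more than its spread, and a pseudocount of 10 moved that of Col15a1, to 1.69. Within libraries A 6 moved, among them Col7a1 to 0.70, Col6a2 to 0.49 and Col9a2 to -0.11. Within libraries B and C the change stayed under the spread in each of the 21, but that spread includes libraries A: Col4a6 went from 0.39 to 1.31, Col1a1 from 0.32 to 0.85 and Col12a1 from 0.38 to 0.86. No paired analysis was possible because each of the 2 samples stands for 3 replicates and the worked-back libraries carry no replicate number. Depth limits Col15a1, Col24a1 and Col25a1, which rest on few reads per library. The DMSO libraries of Col24a1, with 27, 5 and 6 whole reads, and those of Col25a1 would not alone meet the read minimum of limma-voom. The term for libraries A assumes the same shift in both groups, and its calls were not checked where that does not hold.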

Other observations

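Among the chains of types II, IX, XI and XXVII, tied to cartilage above, Col2a1, Col9a3 and Col27a1 passed. Col9a1, Col9a2, Col11a1 and Col11a2 did not (adjusted p = 0.707, 0.741, 0.998 and 0.237 in the authors' deposited table). Of the chondrocyte markers, 1 of 6 passed. The deposited test called 5.97% of all genes with reads higher. Matn1, a matrix protein of cartilage, had 4.0, 6.0 and 18.4 normalised reads in DMSO-A, -B and -C and 109, 121 and 148 in the ICRF-193 libraries, a log2 fold change of 3.74 (adjusted p = 5.92e-18) in the authors' deposited table. Comp, another cartilage matrix protein, had 51.7, 103 and 91.9 reads in DMSO and 112, 234 and 215.5 under ICRF-193, and its log2 fold change of 1.19 did not pass (adjusted p = 0.0815) in the authors' deposited table. Sox9, the transcription factor that sets cartilage fate, had 7.9 to 31.8 reads in DMSO and 6.7 to 37.1 under ICRF-193, and Acan, the main proteoglycan of cartilage, had log2 0.13 (adjusted p = 1) in the authors' deposited table. Matn3 and Hapln1 did not pass either.

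Col26a1 is listed in the table under its older symbol Emid2, which the rule for members does not match. It had 50.1, 49.6 and 33.5 normalised reads in DMSO and 62.2, 57.0 and 38.2 under ICRF-193, with overlapping groups and a log2 fold change of 0.24 (adjusted p = 0.905) in the authors' deposited table.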
